A study of Gallus gallus with 24 samples.

Results

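The left gonad of the female chicken embryo, which becomes the ovary, was compared between embryonic day 8 (E8) and E9.5, over all genes. The comparison rests on 6 of the 24 libraries of the series, chosen by their labels: 3 of the E8 left gonad and 3 of the E9.5 left gonad. All embryos were female Leghorns with no treatment named, and polyadenylated RNA was sequenced from gonads taken from the left and the right side separately at E5, E6.5, E8 and E9.5. Of the 24154 genes in the table, 16694 passed the filter on low counts and were tested, 13489 of them with a symbol. The right gonad at E8 and E9.5, also 3 libraries each, is given beside the left where it bears on a result. Whether replicate libraries were made from different embryos, from pools or from repeated preparations is not stated in the labels. The p-values here set a difference between groups against the spread among replicate libraries, which was estimated from all 24 libraries. That spread may therefore be technical.

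In female birds the left gonad grows into a functional ovary, while the right one falls behind and regresses. The ovary forms an outer cortex, where germ cells proliferate and later enter meiosis, over a medulla whose somatic cells make estrogen from cholesterol. Estrogen made by aromatase is known to be needed for ovarian development in birds. Over the days studied here the medulla is steroidogenic, germ cells multiply, and the female gonad has not yet entered meiosis on a large scale.

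Totals of the 6 libraries ran from 15891379 to 18778297 counts. The first principal component of the 12 left libraries held 53% of the variance of the 1000 most variable genes. On it the E8 libraries lay at 25.9 to 26.5 and the E9.5 libraries at 33.8 to 36.1, so the stages did not overlap. On the second (21.2%) the E8 libraries lay at 3.8 to 15.6 and the E9.5 libraries at -26.6 to 9.6, and there they overlapped. The pre-granulosa and steroidogenic markers, which mark the labelled tissue, were all above 0 in each of the 6 libraries, with summed levels of 3657 to 4024 CPM (counts scaled to a common library total) at E8 and 6809 to 7516 CPM at E9.5. STAR, CYP11A1, CYP17A1 and HSD3B1 among these markers are adrenal cortex markers as well, so they do not mark the gonad alone. The germ cell markers were also all above 0, at 621.6 to 822.5 and 621.5 to 788.7 CPM. Markers of other tissues were present too. Chromaffin markers, which belong to the catecholamine cells of the adrenal gland beside the gonad, summed to 819.2 to 2066 CPM at E8 and 450.4 to 1277 CPM at E9.5, and neural and glial markers to 726.3 to 1266 and 241.4 to 722 CPM. At both stages replicate 3 held the most of both marker sets and replicate 1 the least. Every level below is in CPM on TMM-scaled totals, given as mean ± SD (n = 3), and compares a gene with itself across libraries, since CPM are not divided by gene length.

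From E8 to E9.5, 314 genes changed in the left gonad, which is 1.88% of those tested (adjusted p under 0.05, edgeR's quasi-likelihood test). Of these, 195 (1.17%) rose and 119 (0.713%) fell, and 95 (0.569%) changed by at least 2-fold, 57 upward and 38 downward. The median log2 fold change of all genes tested was 0.002. Counts of genes called in the lists below are to be read against the 1.88% of all genes. The 3 E8 and the 3 E9.5 values did not overlap for 4072 genes (24.4%), far more than were called. The count of calls was 46 without E9.5 left replicate 1, 69 without E8 left replicate 3, 91 without E8 left replicate 1, 129 without E8 left replicate 2 and 155 without E9.5 left replicate 2, against 299 without E9.5 left replicate 3. With each of the 6 libraries left out in turn, 37 genes kept their call in every fit (26 higher, 11 lower), and 277 lost it at least once. The genes that kept it in all 6 are called stable below, and for the others the libraries that decide the call are named.

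**Figure D1:**
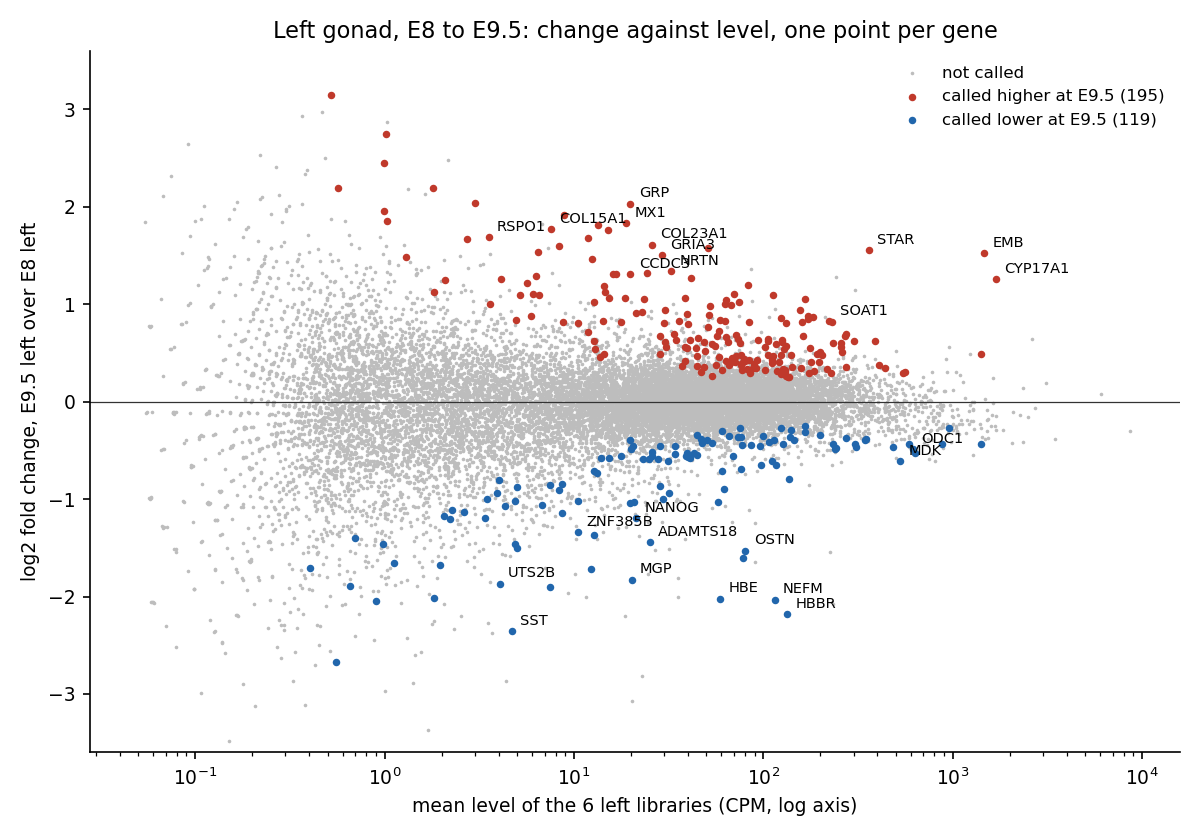
Log2 fold change of E9.5 left over E8 left (vertical axis) against the mean level of the 6 left libraries (horizontal axis, CPM, log scale), 1 point per gene, with the 195 genes called higher in red and the 119 called lower in blue. Genes at or under 0.05 CPM (32) are not drawn, and 9 genes, 1 of them called, lie past the vertical axis; EMB, CYP17A1 and STAR stand out among abundant genes that rose, HBBR and NEFM among those that fell.

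The smallest adjusted p belonged to EMB, which encodes embigin, a membrane glycoprotein that partners lactate transporters. EMB stood at 759.5, 769.5 and 743 CPM in the E8 libraries and at 2529, 2080 and 1934 CPM in the E9.5 libraries. All 3 later values lay far above all 3 earlier ones, and the gene rose 2.88-fold (log2 1.53 ± 0.13 SE, adjusted p = 2.5e-06). In the left gonad its mean had been 80.3 ± 1.52 CPM at E5 and 147 ± 26.6 CPM at E6.5. EMB was a stable call, with adjusted p between 7.2e-06 and 0.00014 when libraries were left out.

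Of 18 steroid synthesis genes tested, STAR and CYP17A1 rose, none fell and 16 did not pass (median 0.10). That is 11.1% called, against 1.88% of all genes, and 0 to 5 of the 18 rose over the other settings. STAR, the protein that brings cholesterol into the mitochondrion, measured 182, 149 and 215 CPM at E8 and 704, 355 and 548 CPM at E9.5. The groups did not overlap, although E9.5 replicate 2 lay well below the other two. STAR rose 2.94-fold (log2 1.56 ± 0.30, adjusted p = 0.011). CYP17A1, an enzyme on the way from cholesterol products to androgens, measured 876, 1021 and 1095 CPM and then 2279, 2094 and 2787 CPM. Its groups were also apart, with a 2.39-fold rise (log2 1.26 ± 0.23, adjusted p = 0.0095). At E5 CYP17A1 had been at 7.17 ± 2.11 CPM, and its mean was higher at each stage up to the 2386 ± 359 CPM of E9.5. STAR lost its call without E8 left replicate 1, E8 left replicate 2 or E9.5 left replicate 1 (adjusted p = 0.052, 0.053 and 0.078), and CYP17A1 without E8 left replicate 1 (0.057), over ranges of 0.0065 to 0.078 and 0.016 to 0.057.

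SOAT1, which esterifies cholesterol for storage, measured 167, 169.8 and 160.5 CPM and then 327, 281 and 269 CPM. The stages were apart and the call was stable (log2 0.82 ± 0.13, adjusted p = 0.0034). TBXAS1, thromboxane synthase, rose from 24.3 ± 2.19 to 58.3 ± 3.01 CPM as another stable call (log2 1.26 ± 0.24, adjusted p = 0.0095). The lipoprotein receptor VLDLR (209 to 337 CPM, log2 0.69, adjusted p = 0.017) and the lipid scavenger receptor CD36 (20.7 to 39.7 CPM, log2 0.94, adjusted p = 0.032) rose less stably. VLDLR lost its call without E8 left replicate 1 or 3 or E9.5 left replicate 1 (0.08, 0.091 and 0.12), and CD36 without any E8 left library or E9.5 left replicate 1 (0.13, 0.068, 0.1 and 0.21). SOAT1, TBXAS1, VLDLR and CD36 were picked for naming after their values were seen.

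Other abundant steroid synthesis genes had higher means at E9.5 without passing. CYP11A1, the side-chain cleavage enzyme that starts steroid synthesis, stood at 141 ± 43.6 and 342 ± 112 CPM (log2 1.28 ± 0.41, adjusted p = 0.12). HSD3B1, the next enzyme, stood at 189.7 ± 41 and 420.4 ± 18.5 CPM (log2 1.15 ± 0.35, adjusted p = 0.096). Both had E9.5 values above every E8 value. CYP19A1, the aromatase that makes estrogen, was at 2466, 1914 and 1778 CPM at E8 and 3446, 3359 and 2781 CPM at E9.5. The groups were apart, but the change did not pass (log2 0.64 ± 0.33, adjusted p = 0.37). HSD17B1, which makes active estrogen, was at 125 ± 15.5 and 202 ± 12.2 CPM (log2 0.69 ± 0.19, adjusted p = 0.063). In a fit of the 6 libraries alone CYP11A1, HSD3B1 and HSD17B1 passed (adjusted p = 0.048, 0.0073 and 0.017), whereas CYP19A1 did not (0.06).

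Of 21 cholesterol synthesis genes 1 rose and none fell, while 19 had positive values, with a median of 0.15 against 0.002 for all genes. DHCR7 (log2 0.46, adjusted p = 0.058) and FDFT1 (0.42, adjusted p = 0.07) had positive values that did not pass. Of 11 receptors for sex steroids, gonadotropins and related hormones, GHR, the growth hormone receptor, rose. GHR measured 34.3, 36.4 and 35 CPM at E8 and 63, 55.5 and 47.6 CPM at E9.5, with no overlap, and was a stable call (log2 0.65 ± 0.11, adjusted p = 0.0037). LHCGR, the luteinizing hormone receptor, was at 75.7 ± 9.02 and 138 ± 29.8 CPM and did not pass (log2 0.86, adjusted p = 0.065). ESR1, the main estrogen receptor, was at 51.3 ± 7.03 and 50 ± 12.9 CPM.

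The adrenal cortex makes steroids with many of the same enzymes. Of its 12 markers tested 3 rose, among them STAR and CYP17A1, which the gonad also expresses, and 9 did not pass. That is 25% called, against 1.88% of all genes, and 1 to 5 of the 12 rose over the other settings. In all 9 had positive values (median 0.49) and 7 had an unadjusted p under 0.05, among them CYP11A1, HSD3B1 and NR5A1, which are gonad genes as well. Those most particular to the adrenal cortex gave no call: the ACTH receptor MC2R was at 2.06 and 1.79 CPM, its accessory protein MRAP at 2.17 and 1.26 CPM and CYP21A1, an enzyme of corticosteroid synthesis, at 13.4 and 14.1 CPM. None of the 12 was at 0 in any of the 6 libraries, and the summed level, mostly from the shared enzymes, was 1598 to 2037 CPM at E8 and 3527 to 4744 CPM at E9.5. With a score of adrenal and chromaffin markers as a covariate, VLDLR and CD36 lost their calls (adjusted p = 0.057 and 0.086). STAR, CYP17A1, SOAT1 and TBXAS1 kept theirs under this score. CYP11A1, uncalled in the main fit, passed with it, 1 of the 4 among 14 alternative fits that called this gene. That score leaves out the shared steroid genes and was 3.37 to 4.95 at E8 and 2.32 to 4.43 at E9.5, while the summed cortex markers were higher at E9.5, so the part of adrenal cortex in the steroid genes was not tested. In bulk RNA a change in the number of cells of a type and a change in RNA per cell cannot be told apart, here and in every result that follows.

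**Figure D2:**
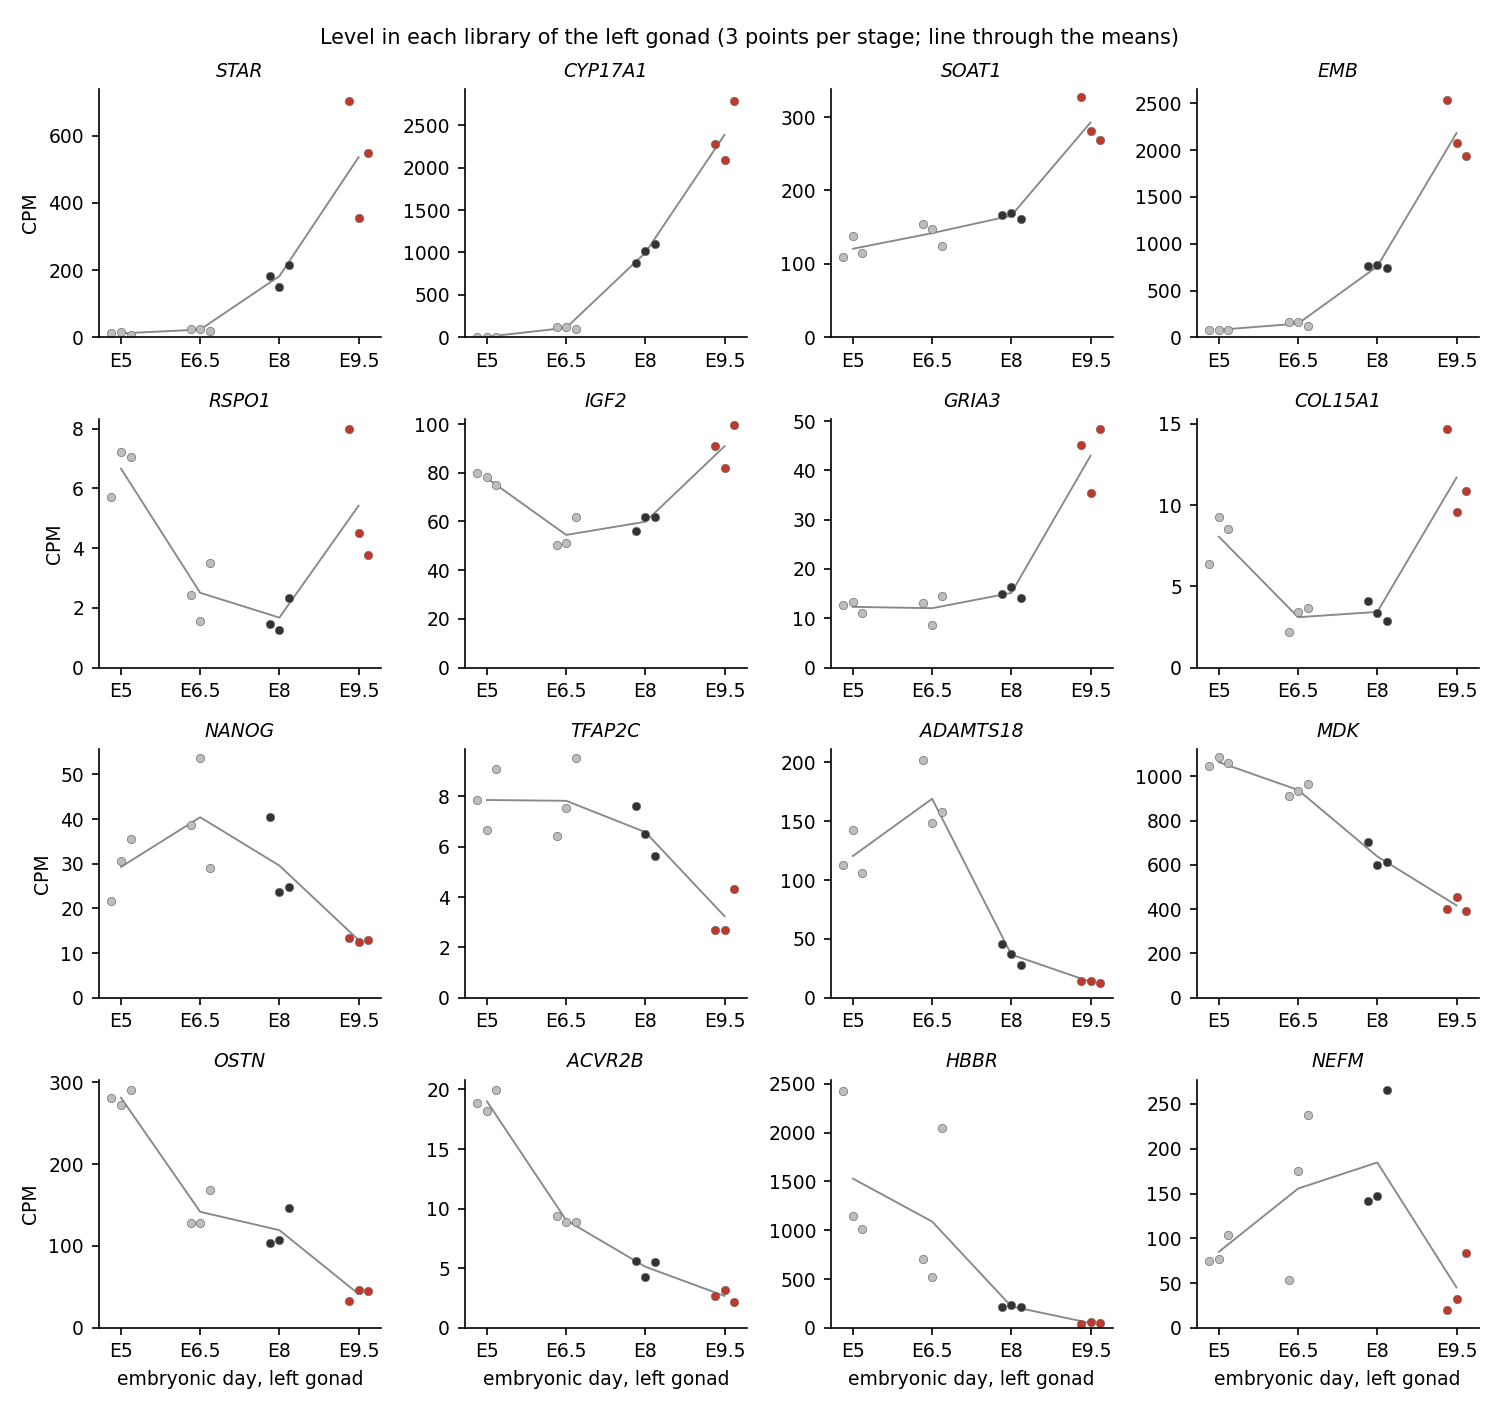
Level of 16 genes in each library of the left gonad (vertical axes, CPM, starting at 0) at E5, E6.5, E8 and E9.5, with 3 points per stage and a line through the stage means. The E9.5 points (red) lie above all E8 points (black) for STAR, CYP17A1, SOAT1, EMB, RSPO1, IGF2, GRIA3 and COL15A1 and below them for the other 8 genes.

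Of 20 ovarian somatic genes tested, RSPO1 rose, none fell and 19 did not pass. Their values went both ways, 11 positive and 9 negative, from -0.63 to 1.69 with a median of 0.10. The stages did not overlap for 12 of the 20, where 24.4% of all genes did not, and 8 had an unadjusted p under 0.05, as did 2596 of the 16694 genes tested. RSPO1 encodes a secreted protein that strengthens WNT signalling and is part of ovarian determination in mammals. It measured 1.46, 1.24 and 2.31 CPM at E8 and 7.99, 4.51 and 3.77 CPM at E9.5, low at both stages but without overlap (3.22-fold, log2 1.69 ± 0.36, adjusted p = 0.018). The change returned the gene to near its E5 level of 6.67 ± 0.815 CPM. Its call was lost without E8 left replicate 1, E8 left replicate 2 or E9.5 left replicate 1 (adjusted p = 0.095, 0.074 and 0.14; range 0.016 to 0.14) and was also lost in the fit of the 6 libraries alone (0.052) and with the adrenal and chromaffin covariate (0.058). The transcription factor FOXL2, which turns on aromatase, was at 53.2 ± 6.39 and 71.8 ± 0.892 CPM (log2 0.43 ± 0.27, adjusted p = 0.46). WNT4 was at 14.4 and 17.2 CPM and FST, the activin antagonist follistatin, at 17.6 and 18.7 CPM. NR5A1, a nuclear receptor that drives steroid genes, was at 109 ± 18.2 and 159 ± 37.4 CPM (log2 0.55, adjusted p = 0.29).

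None of the 16 testis and Sertoli genes passed (median 0.03). DMRT1, the Z-linked testis determinant that germ cells also express, was at 14.6, 17 and 16.3 CPM and then 23.7, 25.7 and 25.8 CPM. The groups did not overlap, yet the change did not pass (log2 0.65 ± 0.25, adjusted p = 0.21), except in the fit of the 6 libraries alone (0.037). AMH, anti-Müllerian hormone, was at 127 ± 62 and 99.8 ± 19.7 CPM, with 198 CPM in E8 replicate 2 and the other values between 77.2 and 113 CPM. SOX9 stayed near the bottom of the range, at 2.13 and 2.34 CPM. Transcription factors of the early gonad had lower means at E9.5 and did not pass, with EMX2 at 149 ± 14.8 and 107 ± 5.89 CPM (log2 -0.48, adjusted p = 0.052) and LHX9 at 228 ± 21.6 and 171 ± 26.6 CPM (log2 -0.41, adjusted p = 0.26). NTN1, which encodes the guidance protein netrin 1, was at 92.8 ± 10.2 and 80.9 ± 2.88 CPM (log2 -0.20, adjusted p = 0.87). Of 16 retinoic acid genes none passed and 13 had negative values (median -0.27). Within that group the synthesis enzyme ALDH1A2 was at 438 and 494 CPM and the breakdown enzyme CYP26B1 at 20.8 and 16.5 CPM.

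Of 31 germ cell genes, NANOG and TFAP2C fell, none rose and 29 did not pass (median -0.08). That is 6.45% called, against 1.88% of all genes, and 0 to 4 of the 31 fell over the other settings. NANOG, a pluripotency factor of avian germ cells, measured 40.4, 23.6 and 24.8 CPM at E8 and 13.3, 12.5 and 12.9 CPM at E9.5. Every E9.5 value lay below every E8 value, and E8 replicate 1 stood above the rest (log2 -1.20 ± 0.29, adjusted p = 0.039). TFAP2C, a transcription factor of early germ cells, measured 7.61, 6.52 and 5.61 CPM and then 2.68, 2.69 and 4.34 CPM, again without overlap (log2 -1.02 ± 0.25, adjusted p = 0.04). Outside that list SOX3, a transcription factor of the SOX family, fell from 11.9 ± 2.54 to 5.38 ± 0.56 CPM (log2 -1.14 ± 0.21, adjusted p = 0.0095). The DNA methyltransferase DNMT3B, named after its values were seen, fell from 143 ± 20.5 to 91.1 ± 4.98 CPM (log2 -0.65 ± 0.14, adjusted p = 0.02).

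None of these was stable. NANOG lost its call with any single library left out (adjusted p = 0.21, 0.057 and 0.087 without E8 left 1, 2 and 3, and 0.15, 0.13 and 0.087 without E9.5 left 1, 2 and 3). TFAP2C lost it without any library but E9.5 left replicate 3 (0.17, 0.11, 0.091, 0.21 and 0.18, against 0.026), and also with no filter on low counts (0.056), in the 6 or the 12 left libraries alone (0.085 and 0.075) and with the adrenal covariate (0.088). SOX3 lost it without E8 left replicate 1 or E9.5 left replicate 1 (0.062 and 0.071). DNMT3B lost it without E8 left replicate 1 or 2 or E9.5 left replicate 1 or 2 (0.13, 0.066, 0.12 and 0.1). The RNA helicase DDX4 was at 84.1 ± 11 and 90.7 ± 11.8 CPM, and the RNA-binding protein DAZL at 159 ± 29 and 134 ± 23.4 CPM. Neither passed, and both overlapped between stages.

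None of 22 meiosis genes passed, although 19 had positive values (median 0.23). STRA8, which starts meiosis on a retinoic acid signal, measured 3.96, 4.72 and 3.7 CPM and then 5.01, 4.73 and 7.33 CPM (log2 0.46 ± 0.33, adjusted p = 0.54). SYCP3, of the synaptonemal complex, stood at 10.7 ± 2.13 and 15.9 ± 3.36 CPM (log2 0.57 ± 0.20, adjusted p = 0.17), and the meiotic cohesin SMC1B at 22.9 and 40.1 CPM (log2 0.81, adjusted p = 0.19). SYCP1 went the other way, at 1.21 and 0.499 CPM (log2 -1.26, adjusted p = 0.18). Of 9 zona pellucida and oocyte genes none passed (median 0.11).

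Of 14 genes of IGF and insulin signalling, 2 rose, 1 fell and 11 did not pass (median 0.10). The share called was 21.4%, against 1.88% of all genes, with 1 to 2 higher and 0 to 1 lower over the other settings. IGF2, a fetal growth factor, measured 56.1, 61.7 and 61.9 CPM at E8 and 91.1, 82 and 99.6 CPM at E9.5. The E9.5 values were all higher, a stable rise (log2 0.60 ± 0.10, adjusted p = 0.0045). IGFBP2, which binds IGFs, rose from 124 ± 5.29 to 198 ± 12.9 CPM (log2 0.67 ± 0.13, adjusted p = 0.0095), a call lost without E8 left replicate 3 alone (0.064). IGF2BP3, a fetal RNA-binding protein that binds IGF2 mRNA, fell from 223 ± 3.34 to 175 ± 9.24 CPM (log2 -0.35 ± 0.08, adjusted p = 0.033), and its call was lost without any single library (0.067 to 0.22), with no filter on low counts (0.05), in the 6 or the 12 left libraries alone (0.064 and 0.078) and with the adrenal covariate (0.085).

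NRTN, which encodes neurturin, a ligand of the GDNF family, measured 15.8, 21.4 and 18.4 CPM and then 46.2, 40.4 and 54.3 CPM. The stages were well apart and the call was stable (2.54-fold, log2 1.34 ± 0.23, adjusted p = 0.0062). MDK, the growth factor midkine, measured 703, 601 and 611 CPM and then 402, 455 and 394 CPM. It had stood at 1064 ± 21 CPM at E5, and this fall too was stable (log2 -0.61 ± 0.09, adjusted p = 0.0018). FGF10, the 1 FGF pathway gene of 26 that passed, rose from 9.88 ± 1.2 to 20.6 ± 2.88 CPM (log2 1.06 ± 0.22, adjusted p = 0.017). That call was lost without E8 left replicate 2 or 3 or E9.5 left replicate 1 (0.06, 0.099 and 0.11), and with the adrenal covariate (0.055). RAMP3, which modifies receptors for adrenomedullin (38 to 64.5 CPM, log2 0.76, adjusted p = 0.0035), and ANGPT2, a vessel growth factor (25.9 to 45.8 CPM, log2 0.82, adjusted p = 0.0053), were stable rises. MDK, RAMP3 and ANGPT2 were named after their values were seen. None of 23 endothelial markers passed, with summed levels of 1119 to 1210 and 1214 to 1318 CPM.

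Of 47 genes of BMP, activin and TGF-beta signalling, 4 rose, 2 fell and 41 did not pass (median -0.05). The share called was 12.8%, against 1.88% of all genes, with 0 to 6 higher and 1 to 3 lower over the other settings. CHRDL1, a BMP antagonist, measured 3.23, 4.59 and 4.63 CPM at E8 and 18.6, 10.2 and 8.83 CPM at E9.5 (log2 1.59 ± 0.36, adjusted p = 0.029). E9.5 replicate 1 lay far above the other two, and the call was lost without it (0.2) and without E8 left 1, 2 or 3 (0.14, 0.066 and 0.11), as well as with the adrenal covariate (0.11). TGFBR3, a co-receptor for TGF-beta and inhibin, rose from 73.6 ± 8.99 to 114 ± 9.35 CPM (log2 0.63 ± 0.14, adjusted p = 0.021). BMP7, a BMP ligand, rose from 35.9 ± 0.394 to 52.6 ± 3.57 CPM (log2 0.55 ± 0.12, adjusted p = 0.027), and SMAD5, a carrier of the BMP signal, from 205 ± 5.45 to 311 ± 39.3 CPM (log2 0.60 ± 0.10, adjusted p = 0.007). BMP7 and SMAD5 were named after their values were seen.

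ACVR2B, a receptor for activins and myostatin, measured 5.6, 4.28 and 5.5 CPM and then 2.68, 3.19 and 2.17 CPM. It fell without overlap, having been at 19 ± 0.902 CPM at E5, and held its call with each library left out (log2 -0.94 ± 0.16, adjusted p = 0.0046), but not in the fit of the 6 libraries alone (0.087). ID2, a transcriptional target of BMP signals, fell from 135 ± 16.6 to 88.5 ± 6.74 CPM (log2 -0.61 ± 0.12, adjusted p = 0.017). TGFBR3 lost its call without E8 left replicate 1 or 3 or E9.5 left replicate 1 (0.1, 0.06 and 0.061), and ID2 without E8 left replicate 2 or 3 or E9.5 left replicate 1 or 2 (0.053, 0.14, 0.12 and 0.1), in the 12 left libraries alone (0.075) and with the adrenal covariate (0.058). BMP7 kept its call only without E9.5 left replicate 2 (0.038; 0.064 to 0.12 without the others), and SMAD5 lost it without E9.5 left replicate 1 (0.061). Other pathways had 1 call or none by the same test. The share called was 2.22% of WNT genes and 2.56% of axon guidance genes, near the 1.88% of all genes. These counts therefore do not set the pathways apart. RSPO1 was the 1 call among 45 WNT genes (median 0.11), and none of 20 hedgehog and PDGF genes (median 0.19) or 18 Notch genes (median 0.07) passed. EFNB2, an ephrin, was the 1 call among 39 axon guidance genes, at 10.6 ± 1.6 and 15.3 ± 0.952 CPM (log2 0.54, adjusted p = 0.044), and kept it only without E8 left replicate 2 (0.034; 0.064 to 0.21 without the others). It also lost the call with no filter, in the 6 or the 12 left libraries alone and with either covariate (0.058 to 0.12).

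Genes of the extracellular matrix and of cell structure moved both ways. COL15A1, a collagen of the basement membrane zone, measured 4.08, 3.35 and 2.83 CPM at E8 and 14.7, 9.56 and 10.8 CPM at E9.5. It rose 3.41-fold without overlap as a stable call (log2 1.77 ± 0.28, adjusted p = 0.0027). COL23A1, a membrane-bound collagen, measured 10.8, 13.8 and 13.7 CPM and then 35, 34.7 and 47.1 CPM, also stable (log2 1.61 ± 0.25, adjusted p = 0.0029). COL4A5, a chain of basement membrane collagen and an abundant one, rose from 1180 ± 77.5 to 1650 ± 250.1 CPM (log2 0.48 ± 0.12, adjusted p = 0.042), and lost its call without any E8 left library (0.14, 0.065 and 0.2) or E9.5 left replicate 1 (0.27), with no filter (0.079), in the 6 or the 12 left libraries alone (0.084 and 0.056) and with the adrenal covariate (0.13). These were the 3 of 36 listed collagen genes that rose, and none of the 36 fell (median 0.13). That is 8.33% called, against 1.88% of all genes, and 2 to 5 of the 36 rose over the other settings. COL7A1L, a collagen-like gene by its symbol that is not on the list, fell from 81 ± 2.61 to 43.7 ± 6.72 CPM (log2 -0.89 ± 0.22, adjusted p = 0.04), and lost its call without any single library (0.098 to 0.13) and with the adrenal and chromaffin covariate (0.057). COL4A6, the partner chain of COL4A5, was at 776 and 1142 CPM and missed the threshold narrowly (log2 0.56, adjusted p = 0.0501).

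Among matrix genes that fell, ADAMTS18, a secreted protease, measured 45.3, 37.2 and 27.4 CPM at E8 and 14.2, 13.9 and 12.4 CPM at E9.5. The later values were close together and under all earlier ones (log2 -1.44 ± 0.20, adjusted p = 0.0013). Its level had peaked at 169 ± 28.6 CPM at E6.5, and it was the 1 gene of 48 matrix and remodelling genes that passed (median -0.04). OSTN, which encodes the secreted peptide osteocrin, measured 104, 108 and 147 CPM and then 33, 45.7 and 45.4 CPM (2.88-fold lower, log2 -1.53 ± 0.21, adjusted p = 0.0012). CNMD, chondromodulin, an inhibitor of vessel growth, fell from 26.7 ± 3.96 to 12.9 ± 0.587 CPM, after 230.4 ± 27 CPM at E5 (log2 -1.04 ± 0.17, adjusted p = 0.0046). ADAMTS18, OSTN and CNMD were stable calls, CNMD being named after its values were seen. MGP, an inhibitor of calcification, measured 32.6, 27.7 and 34.2 CPM and then 5.9, 7.09 and 13.6 CPM (log2 -1.83 ± 0.31, adjusted p = 0.0053), a call lost without E9.5 left replicate 1 alone (0.055).

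Other genes with stable calls were not on any of the lists. PPL, periplakin, which links intermediate filaments to desmosomes, measured 48.6, 44.4 and 57.5 CPM and then 142, 109 and 94.6 CPM (log2 1.20 ± 0.17, adjusted p = 0.0014). PTRF, which builds caveolae, rose from 108 ± 3.48 to 225 ± 11.4 CPM (log2 1.05 ± 0.17, adjusted p = 0.0035). LMINA, of the nuclear lamina, rose from 43.8 ± 2.23 to 72.4 ± 7.97 CPM (log2 0.73 ± 0.09, adjusted p = 0.00071), and COLEC12, a scavenger receptor, from 159.8 ± 15.5 to 284 ± 26.8 CPM (log2 0.83 ± 0.11, adjusted p = 0.00084). MCTP2, a calcium-binding membrane protein, measured 47.1, 51.5 and 48 CPM and then 103, 101 and 94.4 CPM (log2 1.02 ± 0.13, adjusted p = 0.00062). LMINA and COLEC12 were named after their values were seen. On the other side, the zinc finger gene ZNF385B (15.1 ± 1.66 to 5.97 ± 0.437 CPM, log2 -1.34 ± 0.17, adjusted p = 0.00071) and the protocadherin PCDH20 (7.38 ± 0.811 to 2.6 ± 0.668 CPM, log2 -1.50 ± 0.23, adjusted p = 0.0027) fell and were stable.

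Of 20 stroma and interstitium markers 1 fell, none rose and 19 did not pass, with 9 positive and 11 negative values (median -0.12). The call was TWIST1, a transcription factor of mesenchyme, which fell from 18.5 ± 6.17 to 7.12 ± 2.66 CPM (log2 -1.37 ± 0.32, adjusted p = 0.032). MSC, a related factor outside that list, fell from 174 ± 13.6 to 101 ± 16.1 CPM (log2 -0.79 ± 0.19, adjusted p = 0.034). TWIST1 lost its call without E8 left replicate 2 or 3 or E9.5 left replicate 1 or 2 (0.066, 0.18, 0.18 and 0.062), and MSC without any single library (0.065 to 0.14). With the adrenal covariate neither was called (0.091 and 0.053), and TWIST1 was not called in the 6 or the 12 left libraries alone (0.066 and 0.089). None of 19 surface epithelium markers passed (median -0.13). Of 31 HOX genes, HOXB5 fell (21.1 ± 2.61 to 14.3 ± 1.3 CPM, log2 -0.56, adjusted p = 0.035; 0.072 to 0.19 with each library left out and 0.088 in the 6 libraries alone), none rose and 23 had negative values (median -0.34).

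Further stable rises came from genes of varied roles. PARP8, an ADP-ribosyltransferase, rose from 44.4 to 95.3 CPM (log2 1.10 ± 0.15, adjusted p = 0.00084), and RERG, a small GTPase of the RAS family, from 71.7 to 153 CPM (log2 1.09, adjusted p = 0.0053). PHYKPL, an enzyme of hydroxylysine breakdown, rose from 25.6 to 76.7 CPM (log2 1.58 ± 0.23, adjusted p = 0.0018). GIF went from 1.31 to 4.17 CPM (log2 1.67 ± 0.29, adjusted p = 0.007). These genes had E9.5 values above every E8 value, which the rule for naming them required. ALK, a receptor tyrosine kinase, measured 4.26, 7.45 and 9.78 CPM at E8 and 1.73, 2.36 and 3.67 CPM at E9.5 (log2 -1.46 ± 0.32, adjusted p = 0.024). It fell without overlap, from low levels that varied between libraries, and its call was lost without E8 left replicate 2 or 3 or E9.5 left replicate 1 or 2 (0.067, 0.15, 0.15 and 0.1), and in the 6 or the 12 left libraries alone (0.08 and 0.078).

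Glutamate receptor genes of the AMPA type, best known from synapses, moved in opposite directions. GRIA3 measured 14.9, 16.4 and 14.1 CPM at E8 and 45.1, 35.4 and 48.4 CPM at E9.5. Its E5 mean had been close to that of E8, at 12.3 ± 1.21 CPM, and it rose 2.84-fold as a stable call (log2 1.51 ± 0.18, adjusted p = 0.00062). GRIA4 measured 1.58, 1.05 and 0.868 CPM and then 8.64, 4.01 and 1.86 CPM (log2 2.04 ± 0.50, adjusted p = 0.04). The E9.5 values were far apart, with replicate 1 highest, and the call was lost without any library but E9.5 left replicate 3 (0.092, 0.11, 0.19, 0.29 and 0.063, against 0.015), and also with no filter (0.054), in the 6 or the 12 left libraries alone (0.091 and 0.071) and with the adrenal covariate (0.19).

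GRIA1, another subunit, measured 29, 32.5 and 22.3 CPM at E8 and 13.4, 14.6 and 13 CPM at E9.5 (log2 -1.03 ± 0.25, adjusted p = 0.035). CACNG3, an auxiliary subunit of these receptors, fell from 76.9 ± 2.42 to 37.7 ± 6.7 CPM (log2 -1.03 ± 0.25, adjusted p = 0.036). Both were lower in every E9.5 library, and both calls were lost without any single library (0.063 to 0.16 and 0.064 to 0.17), that of CACNG3 also with the adrenal covariate (0.068). GRIA2 was at 90.4 ± 16.3 and 54.6 ± 0.987 CPM and did not pass (log2 -0.73, adjusted p = 0.16). SLC1A6, a glutamate transporter, rose from 3.69 ± 0.829 to 14 ± 2.22 CPM (log2 1.92 ± 0.41, adjusted p = 0.018), a call lost without any E8 left library or E9.5 left replicate 1 (0.099, 0.065, 0.063 and 0.082). Over the 43 neurotransmitter receptor genes, 2 rose, 1 fell and 40 did not pass (median -0.14). That is 6.98% called, against 1.88% of all genes.

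Peptide hormone genes also diverged. GRP, gastrin-releasing peptide, measured 7.43, 6.83 and 9.14 CPM at E8 and 41.1, 24.3 and 30.3 CPM at E9.5. It rose 4.09-fold without overlap (log2 2.03 ± 0.42, adjusted p = 0.017), from 0.103 CPM at E5, and lost its call without any E8 left library or E9.5 left replicate 1 (0.085, 0.065, 0.07 and 0.1). UTS2B, a urotensin-like peptide, measured 6.39, 5.34 and 7.41 CPM and then 1.79, 1.15 and 2.27 CPM, a stable fall (log2 -1.87 ± 0.30, adjusted p = 0.0033). SST, somatostatin, fell from 7.85 ± 2.81 to 1.52 ± 1.11 CPM (log2 -2.35 ± 0.61), with an adjusted p of 0.0497 that stayed under the threshold only without E9.5 left replicate 3 among the libraries left out (0.032; 0.09 to 0.24 without the others). RLE scaling, no filter, the 12 left libraries alone and the adrenal covariate ended the call of SST as well (0.051 to 0.1).

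Among markers of nerve and chromaffin cells NEFM, NEFL and SLC18A2 fell, and the others did not pass. NEFM, a neurofilament subunit, measured 142, 147 and 265 CPM at E8 and 20, 31.9 and 83.3 CPM at E9.5. Replicate 3 was highest at both stages, and the stages did not overlap (log2 -2.03 ± 0.46, adjusted p = 0.029). NEFL, another neurofilament subunit, fell from 118 ± 43 to 38.6 ± 19.1 CPM (log2 -1.61 ± 0.31, adjusted p = 0.011), and SLC18A2, the vesicular monoamine transporter, from 18.8 ± 5.24 to 5.7 ± 2.83 CPM (log2 -1.72 ± 0.33, adjusted p = 0.011). Of 20 neural and glial markers, NEFM and NEFL fell (10%, against 1.88% of all genes), none rose and 19 had negative values (median -1.11). Of 14 chromaffin markers, SLC18A2 fell (7.14%), none rose and all 14 had negative values (median -0.99). The markers of a set can vary together between libraries, so their common sign may not be many separate results. CHGA, chromogranin A, was at 138, 337 and 530 CPM and then 37.5, 87 and 220.2 CPM (log2 -1.54, adjusted p = 0.28), and TH, which makes catecholamines, at 17.2 ± 9.38 and 8.7 ± 8.48 CPM (log2 -0.98, adjusted p = 0.49). For both genes the stages overlapped, with replicate 3 highest among the E8 values of CHGA.

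These calls depended on single libraries. NEFM was lost without any library but E9.5 left replicate 3 (adjusted p = 0.061, 0.055, 0.16, 0.17 and 0.13, against 0.0067). NEFL and SLC18A2 were lost without E8 left replicate 3 (0.094 and 0.069), E9.5 left replicate 1 (0.087 and 0.075) and E9.5 left replicate 2 (0.067 and 0.052). In the 12 left libraries alone NEFM and NEFL were not called (0.096 and 0.063), nor was NEFM in the 6 libraries alone (0.062). No E9.5 library had more than 1 of the 14 chromaffin markers at 0, and no library had any of the 20 neural markers at 0. In the right gonad both sets were lower to begin with (summed chromaffin level 276.8 to 287.9 CPM at E8 and 252.6 to 342.9 CPM at E9.5) and their medians there were -0.02 and -0.08. How far adrenal or nerve tissue taken along with the left gonad enters these values was not tested.

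**Figure D3:**
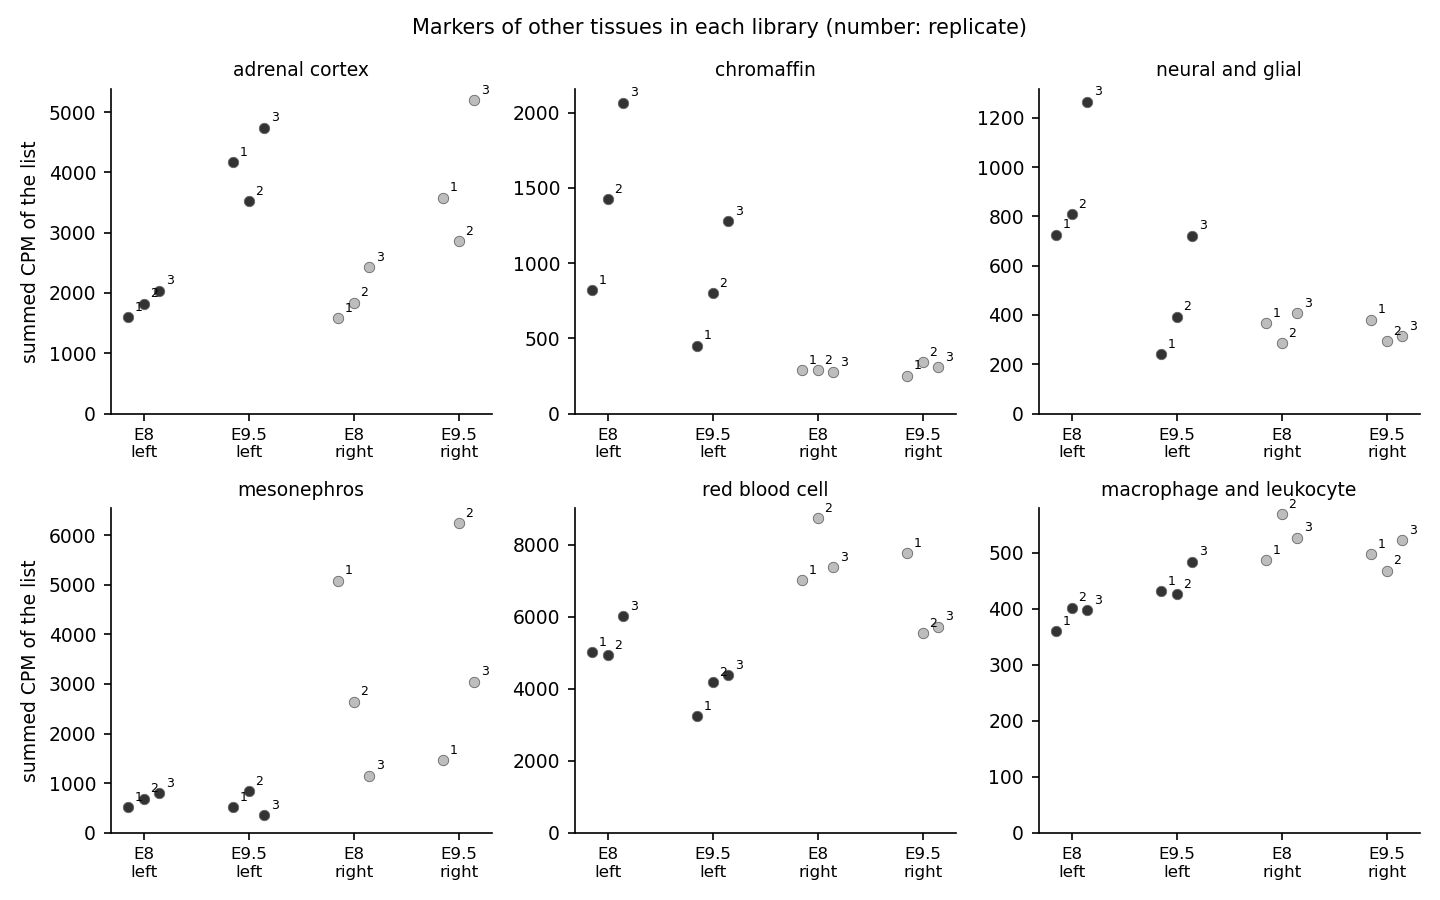
Summed level of 6 marker lists of other tissues (vertical axes, CPM, starting at 0) in each library of the E8 and E9.5 left (black) and right (grey) gonads, numbered by replicate. Chromaffin and neural markers are higher in the left gonad at E8 (819.2 to 2066 and 726.3 to 1266 CPM) than in the right one, and adrenal cortex markers, which include the steroid enzymes, have higher sums at E9.5 on both sides.

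Mesonephros markers, from the kidney on which the gonad lies, summed to 518 to 796.2 CPM at E8 and 354.3 to 837.6 CPM at E9.5. Of 23 tested, PAX2, which also marks the Müllerian duct, fell from 14.1 ± 1.72 to 6.96 ± 2.31 CPM (log2 -1.02 ± 0.24, adjusted p = 0.033), and 19 had negative values (median -0.59). PAX2 kept its call only without E9.5 left replicate 2 (0.02; 0.09 to 0.18 without the others), lost it in the 6 libraries alone (0.062) and with the adrenal covariate (0.065), and was the 1 call among 11 Müllerian duct markers (median -0.46). With the mesonephros level as a covariate 371 genes were called, against 314. MYL4, of the muscle list, fell from 41.8 ± 8.38 to 21.8 ± 0.786 CPM (log2 -0.94, adjusted p = 0.0095), and lost its call without E8 left replicate 3 or E9.5 left replicate 1 (0.074 and 0.061). It was the 1 call among 17 muscle genes (median -0.49), and none passed among 21 liver genes (median -0.64) or 8 heterophil genes (median 0.24).

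Of 3 embryonic globins described here, HBBR and HBE fell and HBZ did not pass. HBBR, an embryonic beta-type globin, measured 213, 234 and 212 CPM at E8 and 37.5, 59.4 and 48.1 CPM at E9.5. The stages were far apart, with a 4.54-fold fall (log2 -2.18 ± 0.46, adjusted p = 0.018), after a mean of 1529 CPM at E5. HBE, another embryonic beta-type globin, measured 83.7, 98.7 and 104 CPM and then 16.4, 29.9 and 24 CPM (log2 -2.02 ± 0.45, adjusted p = 0.025). HBZ, the embryonic alpha-type globin, was at 55.3 ± 3.93 and 15.7 ± 4.28 CPM and did not pass (log2 -1.81, adjusted p = 0.074). The globins of the later type were lower by less: HBA1 was at 1678 ± 189.8 and 1289 ± 247 CPM and HBBA at 1611 ± 226 and 1253 ± 222 CPM, with log2 values of -0.38 and -0.36 that did not pass. Embryonic beta globins resemble each other closely, so reads could be split between them. Of 20 red cell markers 2 fell (10%, against 1.88% of all genes) and none rose (median -0.33). Their summed level was 4933 to 6016 CPM at E8 and 3235 to 4368 CPM at E9.5. HBBR lost its call without any E8 left library (0.052, 0.053 and 0.058) or E9.5 left replicate 1 (0.11), and HBE without any single library (0.052 to 0.15) and in the 12 left libraries alone (0.054). With the adrenal and chromaffin markers as a covariate they had adjusted p of 0.057 and 0.08.

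Of 29 interferon-stimulated genes tested, 4 rose (1 to 6 over the other settings), none fell and 25 did not pass. That is 13.8% called, against 1.88% of all genes. In all 26 had positive values, which may not be separate results, since such genes can vary together between libraries, with a median of 0.37 against 0.002 for all genes (0.30 to 0.44 over the other settings). MX1, an antiviral GTPase, measured 9.13, 8.25 and 7.29 CPM at E8 and 35.6, 32.9 and 19.6 CPM at E9.5. The lowest later value, in replicate 3, was still far above the earlier ones (log2 1.83 ± 0.34, adjusted p = 0.0095). PARP12, an ADP-ribosyltransferase with antiviral function, measured 104, 119.5 and 124 CPM and then 218, 189 and 202 CPM, and was the stable member of the list (log2 0.81 ± 0.13, adjusted p = 0.0027). Its relative PARP14 rose from 108 ± 1.83 to 206 ± 46.5 CPM (log2 0.94 ± 0.18, adjusted p = 0.011). BF2, a class I histocompatibility gene, rose from 41.5 ± 13.6 to 85.3 ± 8.37 CPM (log2 1.04 ± 0.23, adjusted p = 0.024). BF2 may share reads with its near copy BF1, which was at 24.2 ± 8.42 and 45.4 ± 3.76 CPM (adjusted p = 0.21). B2M, the light chain of class I molecules, was at 136 ± 10.4 and 183 ± 12.1 CPM (log2 0.43, adjusted p = 0.09).

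Without E8 left replicate 3 and without E9.5 left replicate 1, MX1 (0.066 and 0.062) and PARP14 (0.063 and 0.083) lost their calls, PARP14 also with the adrenal covariate (0.053). BF2 lost its call without E8 left replicate 1 or 3 or E9.5 left replicate 1 or 2 (0.13, 0.16, 0.08 and 0.082). Of 27 macrophage and leukocyte markers none passed, 23 had positive values (median 0.35), and their summed level was 359.4 to 402 CPM at E8 and 425.5 to 483.9 CPM at E9.5. Their part in the interferon values was not tested. Outside these lists, the complement gene C4A rose from 5.95 ± 0.481 to 20.9 ± 6.76 CPM (log2 1.81 ± 0.33, adjusted p = 0.0095), and F13A1, a subunit of clotting factor XIII that macrophages also make, from 6.59 ± 1.91 to 18.2 ± 6.87 CPM (log2 1.46 ± 0.33, adjusted p = 0.026). C4A lost its call without E8 left replicate 3 or E9.5 left replicate 1 (0.052 and 0.061), and F13A1 without any E8 left library or E9.5 left replicate 1 (0.13, 0.071, 0.06 and 0.18).

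**Figure D4:**
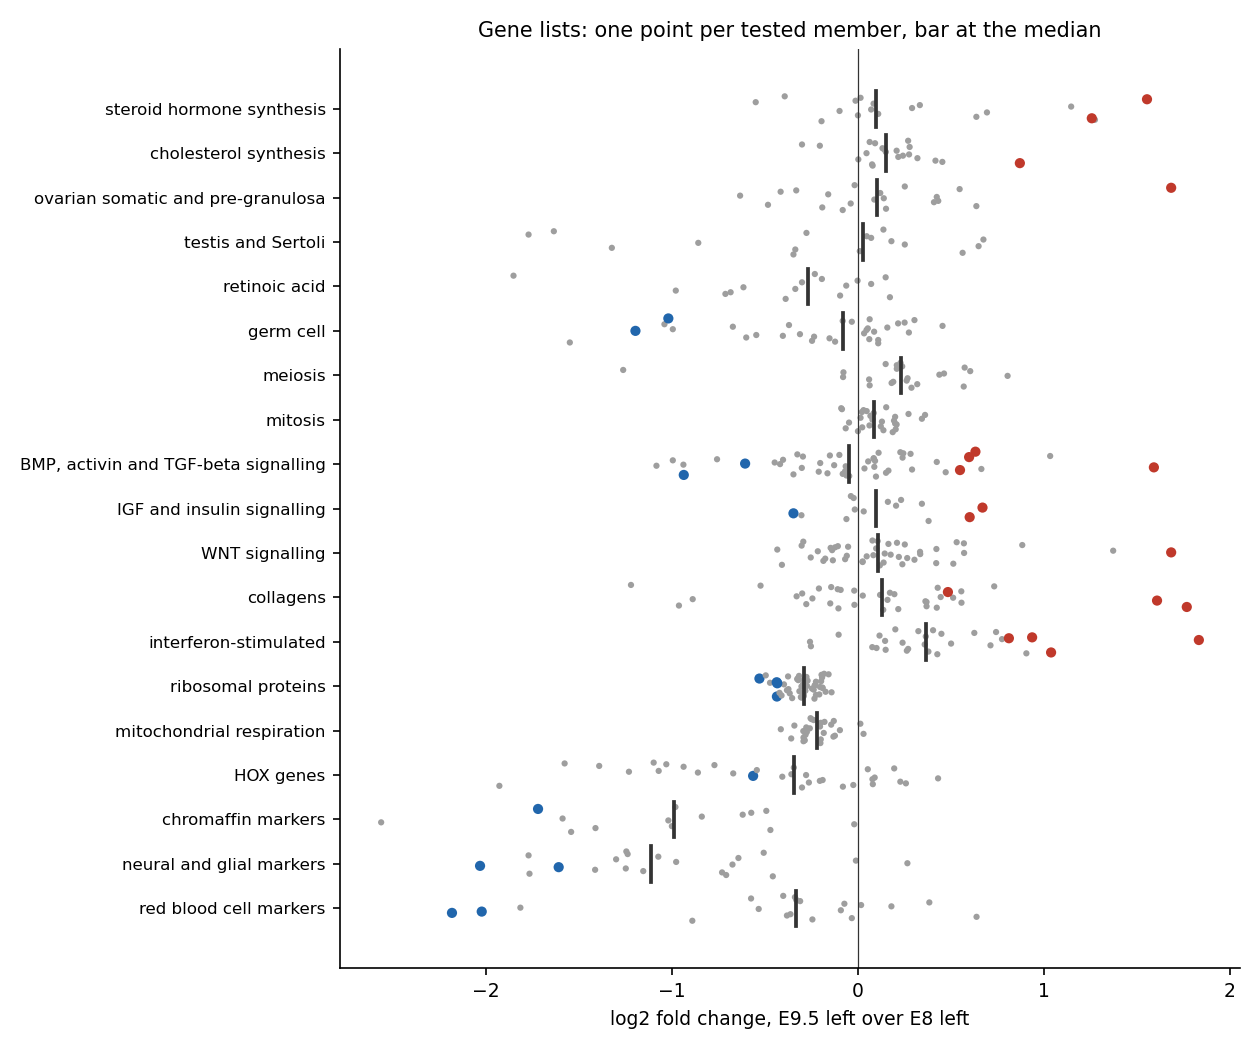
Log2 fold change of E9.5 left over E8 left (horizontal axis) for every tested member of 19 gene lists, with a bar at each list's median, called genes larger and coloured (red higher, blue lower) and the others grey. All 48 listed ribosomal protein genes lie left of 0 at a median of -0.29, and the interferon-stimulated genes have a median of 0.37.

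Ribosomal protein genes had lower levels at E9.5. All 48 listed ribosomal protein genes tested had negative values (median -0.29, -0.34 to -0.19 over the other settings). Of these 48, 4 passed, none upward, which is 8.33% against 1.88% of all genes. Over the other settings 0 to 9 fell, and none did without E8 left replicate 1 or without E9.5 left replicate 1. In the right gonad the median of the 48 was -0.28, and none passed there. The list is not complete, and ribosomal protein genes outside it also had calls, all of them downward. RPS20 fell from 750.2 ± 51.7 to 519.9 ± 33.7 CPM (log2 -0.53 ± 0.11, adjusted p = 0.018), with RPS13 (log2 -0.44) and RPL15 (log2 -0.43) at adjusted p of 0.011 and 0.017. These 3 lost their calls without E8 left replicate 1 (0.08, 0.058 and 0.08). RPS20 and RPL15 also lost it without E8 left replicate 3 (0.074 and 0.077), all 3 without E9.5 left replicate 1 (0.069, 0.1 and, for RPS13, 0.05), RPL15 without E9.5 left replicate 2 (0.082), and RPS20 without E9.5 left replicate 3 (0.057). RPL15 was not called in the 12 left libraries alone (0.069) or with the adrenal and chromaffin covariate (0.05). Such genes can vary together between libraries, so their common sign may not be many separate results. Of 28 genes of mitochondrial respiration none passed and 26 had negative values (median -0.22). ODC1, which starts polyamine synthesis, fell from 721 ± 30.3 to 514 ± 71.5 CPM (log2 -0.49 ± 0.09, adjusted p = 0.007), and the mitochondrial matrix protein C1QBP from 279.8 ± 15.4 to 199 ± 6.16 CPM (log2 -0.49 ± 0.07, adjusted p = 0.0017). Both held with each library left out, and both were named after their values were seen. ODC1 was lost in the fit of the 6 libraries alone (0.061).

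Cell division genes gave no call. None of 27 mitosis genes (23 positive values, median 0.09) or 26 DNA replication genes (11 positive values, median -0.05) passed. None of 20 apoptosis genes (median 0.07), 26 hypoxia and glycolysis genes (median -0.17) or 25 immediate early and heat shock genes (median -0.09) passed either.

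In the right gonad over the same days 536 genes changed (3.21%), 313 upward (1.87%) and 223 downward (1.34%), 154 of them (0.922%) by at least 2-fold. Left and right use different libraries, but these may not be independent: same-numbered left and right libraries deviated together at E9.5 (correlations 0.35, 0.53 and 0.42), though not at E8 (-0.06, 0.17 and 0.07). Of the 195 genes that rose on the left, 75 (38.5%) also rose on the right, which is 24% of the 313. Of the 119 that fell on the left, 38 (31.9%) also fell on the right, or 17% of the 223. No gene was called in opposite directions. Of the left genes that rose, 193 (99%) had a positive value on the right, where 52.6% of all genes did, and of those that fell 111 (93.3%) had a negative value, where 47.4% of all genes did. These genes were chosen by their left values. Those that rose had a median log2 value of 0.64 in the left gonad and 0.42 in the right, and those that fell of -0.59 and -0.35.

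STAR (log2 1.35), CYP17A1 (1.01) and EMB (1.11) rose on the right too, as did GRIA3 (1.59) and NRTN, which went from 12.3 ± 2.4 to 50 ± 16 CPM there (log2 2.02, adjusted p = 0.00013). HBBR fell there by a similar amount (log2 -2.26). MX1 was lower on the right at both stages, at 2.46 and 3.15 CPM, and RSPO1 was at 5.59 and 7.04 CPM there. Neither passed on the right (adjusted p = 0.62 for each). NANOG was at 19.4 ± 2.4 and 21.9 ± 4.75 CPM on the right, against a fall on the left.

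The difference between the left and the right change was tested directly by edgeR's quasi-likelihood test, and no gene passed (0%). An unadjusted p under 0.05 was found for 832 genes, and the smallest adjusted p was 0.27. With the replicate number as a block these were 1067 genes and 0.073. With it as a block within each stage they were 1478 genes and 0.14, and no gene passed in either fit. For NANOG the difference was -1.37 on the log2 scale (unadjusted p = 0.0032, adjusted p = 0.65) and for RSPO1 the unadjusted p was 0.011 (adjusted p = 0.93), so neither can be called particular to the left gonad. DESeq2 called 6 genes for this difference, all with a lower log2 change on the left than on the right: RPH3A (log2 -1.52), PTPN5 (-1.54), CALCB (-1.28), HUS1 (-0.70), ZNF185L (-1.87) and LOC107051626 (-3.28), with edgeR's adjusted p at 0.27 to 0.42 for them.

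**Figure D5:**
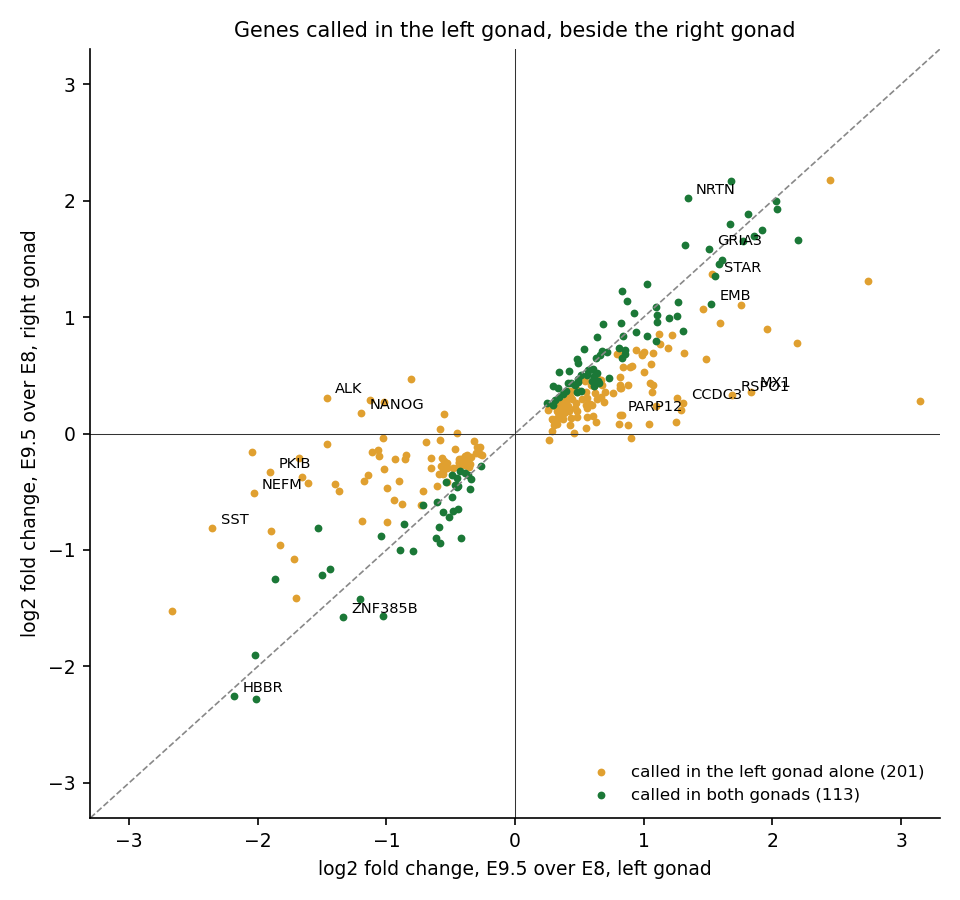
Log2 fold change of E9.5 over E8 in the right gonad (vertical axis) against the left gonad (horizontal axis) for the genes called on the left, with the 113 called on both sides in green, the 201 called on the left alone in orange and a dashed line of equal change. The points lie mostly on the same side of 0 on both axes and closer to 0 on the right; 1 gene lies beyond the axes.

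Earlier and later steps of the left gonad can be set beside each other without shared libraries. Both were tested in the same fit with a shared estimate of the spread, so their calls are not independent. Genes called from E8 to E9.5 also had higher levels, at medians of 63.1 CPM (higher) and 39.1 CPM (lower) against 23.2 CPM for all genes. The part of spread and level in the shares below was not tested. Of the 195 genes that rose from E8 to E9.5, 48 (24.6%) had also risen and 22 (11.3%) had fallen from E5 to E6.5, where 6.38% of all genes rose and 4.04% fell. Of the 119 that fell, 28 (23.5%) had fallen and 8 (6.72%) had risen in that earlier step. STAR, CYP17A1 and EMB are examples of a mean that was higher at each later stage, and MDK, ACVR2B and OSTN of one that was lower at each.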

How the data were processed

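Polyadenylated RNA of female chicken gonads was sequenced, and the authors deposited a table of raw read counts per gene for the 24 libraries. Per the submitters' processing notes, Trim Galore 0.6.7, STAR 2.7.10a, HTSeq 2.0.0 and the GRCg6a genome were used. No source used here gives the strand setting or how reads that map to several places were treated. Without strand, reads of overlapping genes on opposite strands cannot be told apart, and near-identical copies may share or lose reads. Libraries were grouped by their labels into 8 groups of 3 and fitted together with edgeR 4.0.16 (R 4.3.3, limma 3.58.1): quasi-likelihood test, TMM scaling, filterByExpr (minimum count 10, minimum total 15), Benjamini-Hochberg adjustment over 16694 genes and a threshold of 0.05. Contrasts were E9.5 left against E8 left, the same on the right, and the difference between them. Pooling all libraries gives 1 estimate of the spread, with a common biological coefficient of variation of 0.212. The standard error of a log2 fold change was its size divided by the square root of F. The same kind of fit was also run on simulated counts made from the means and spread of the main fit. Of the 2-fold changes put in, it called 66% for the left step and 30% for the left-right difference. The simulated spread depended on a gene's level alone, with none particular to a gene and no shift shared across a library. Changes were put only into genes above a low mean level. These shares may therefore not hold for the real libraries.

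Totals of 15891379 to 18778297 counts leave counting error small for genes above a few CPM, and the spread between libraries sets the precision. Replicate libraries differed by more than sampling noise, and each was counted as 1 sample. That excess does not show that they come from separate embryos, which the labels leave unstated. Alternatives were RLE scaling, no filter, DESeq2 1.42.0, the 6 compared libraries or the 12 left libraries alone, the replicate number as a block, adrenal and mesonephros marker levels as covariates, and leaving out each library.

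The members and gene lists were chosen with earlier results of these data known. Genes were named by a rule: the 20 largest changes each way among called genes that have a symbol, average 2 CPM or more and do not overlap between stages, the 10 largest each way at 50 CPM or more, a panel of gonad genes, and up to 4 called genes per list, or up to 2 abundant ones where none was called. Any difference called between left and right was also to be named. For genes named by their size of change, a lack of overlap was required and is no added result. Genes named outside the rule, after their values were seen, are those marked so in the text and HSD3B1, LHCGR, DHCR7, FDFT1, EMX2, LHX9, SMC1B, SYCP1, COL4A6, GRIA2, CHGA, TH, HBZ, HBA1, HBBA, BF1, B2M, MC2R, MRAP and CYP21A1. The 6 genes of the left-right difference were named because DESeq2 called them. Some genes are not reported here.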

Additional observations from a re-analysis of the deposited data

How the results depend on the processing

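The counts of calls for the left gonad moved with the processing. Against 314 genes called, 201 were called with no filter on low counts, 737 by DESeq2, 188 with the adrenal and chromaffin level as a covariate, and 46 to 299 with a library left out. Against 195 higher, these were 113, 472, 113 and 33 to 182. Against 119 lower, DESeq2 gave 265, the adrenal covariate 75, and a library left out 13 to 117. Against 95 genes of at least 2-fold, the adrenal covariate gave 61 and a library left out 18 to 120. For the difference between left and right, DESeq2 called 6 genes and the other fits 0. DESeq2 left 1641 genes with no adjusted p. RLE scaling (322), the 6 libraries alone (295), the 12 left libraries (252) and the mesonephros covariate (371) stayed within 1.5 times of 314, and 180 of the 295 genes were among the 314. The cause of these shifts was not tested.

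Deviations of same-numbered E8 and E9.5 left libraries had correlations of 0.36, 0.06 and 0.19, and those of differently numbered ones ran from -0.29 to 0.06. The labels name no pairing, and whether libraries of the same number share anything was not tested. With the replicate block 463 genes were called, 186 of them lower, including 310 of the 314. The difference between left and right gave 0 calls with the block as well.

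Of the 74 named genes that were called, 50 kept their call with the adrenal covariate and 24 without E9.5 left replicate 1. None of the 74 changed direction in any fit. Many of them were named for having no overlap between stages, so leaving out a library could hardly reverse their sign. Among genes that were not called, signs near 0 changed. With libraries left out, log2 values ran from -0.57 to 0.16 for AMH, -0.28 to 0.17 for EXFABP, -0.15 to 0.08 for CCNB2 and for PCNA, -0.14 to 0.08 for KDR, -0.2 to 0.17 for ESR1, -0.09 to 0.11 for BIRC5, -0.05 to 0.07 for MCM2, -0.06 to 0.18 for APOA1, -0.08 to 0.23 for FST, -0.02 to 0.29 for SOX9, -1.08 to 1.59 for LECT2, -1.6 to 0.15 for MRAP and -0.38 to 0.42 for CYP21A1. With the adrenal covariate the values were 0.05 for TOP2A, HBBA and MC2R, -0.03 for FST and 0.62 for MRAP. With the mesonephros covariate they were 0.02 for BIRC5 and -0.03 for MCM2 and NOTCH2, with no filter -0.01 for MCM2, and in the 12 left libraries 0 for BIRC5. At 3 libraries a group, modest changes of genes that vary between libraries may go uncalled.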

Other observations

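LOC426220, a gene without a symbol, was at 0 CPM in all 3 E8 left libraries and at 0.894, 1.98 and 0.103 CPM in the E9.5 left libraries. It was called (adjusted p = 0.0495, edgeR's quasi-likelihood test), and its fitted fold change depends on the prior count and is not given. With libraries left out, the call held only without E9.5 left replicate 3 (0.016, against 0.11 to 0.16 without the others). It held in 2 of the 8 other settings. LOC426220 was named outside the rule, after its values were seen.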
